A study of Mus musculus with 6 samples.

Results

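Immediate early genes are the first genes that a neuron transcribes after it has been active. This account covers 35 of them, taken by name from a list of genes known to be induced by neuronal activity. All 35 were found among the 25239 genes counted in the mouse hippocampus, and all 35 were among the 14445 genes that passed the filter on low counts and were tested. Hippocampal RNA came from male C57BL/6 mice of 6 to 8 weeks, 3 of them wild type (WT, Ube3a m+/p+) and 3 of the genotype Ube3a m-/p+, each sequenced as a library of its own. Ube3a encodes a ubiquitin ligase, and Ube3a m-/p+ mice, which model Angelman syndrome, have a deficient maternal and an intact paternal copy, of which neurons silence the paternal one. The extent of the deletion is not given in the sources used here. The labels list no stimulus, and the handling of the mice and the time of day at which tissue was taken are not given in the sources used here. Bulk tissue cannot tell fewer cells of a type from less RNA per cell.

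When a neuron fires, calcium enters through NMDA receptors and voltage-gated channels and drives calmodulin kinases and the MAP kinase cascade into the nucleus. There the kinases act on proteins that wait on the promoters already, chiefly CREB on the cyclic AMP response element (CRE) and serum response factor on the CArG box, so that transcription starts without new protein synthesis. The products are transcription factors (Fos, Jun, Egr, Npas4 and Nr4a proteins), proteins that act at the synapse (Arc, Nptx2) and brakes on the same signals (Dusp phosphatases, Sik1, Rgs2), and in the hippocampus several of them are standard marks of recently active cells.

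The promoters were searched for the letters of such sites. A RefSeq promoter window (GRCm38.p6, from 250 bases before the start to 50 after it) was at hand for 27 of the 35 genes. The letters TGACG, the core of the CRE, stood on either strand of the window in 18 of these 27 genes (66.7%), against 23.0% of all genes with a window and 34.2% of the tested genes with one. The full palindrome TGACGTCA, which contains TGACG, stood in 4 of 27 (14.8%), those of Dusp1, Btg2, Arl4d and Plk2. Its share was 2.03% of all genes and 3.43% of tested genes. The CArG box stood in those of Egr2 and Dusp5 (7.41%, against 1.81% of all and 1.53% of tested genes). TATAAA stood in 5 of 27 windows (18.5%, against 9.77% of all and 5.27% of tested genes). The AP-1 letters TGANTCA and the consensus of the EGR factors stood in none of the 27, which says only that those letters are not in these windows. The 250 bases before the start are shown for 6 genes that represent the kinds of promoter and of result described here, 5′ to 3′ on the strand of the gene. Capitals mark TGACG or its reverse complement CGTCA, the full palindrome, CArG boxes and TATAAA. Fos (chr12:85473640-85473889, plus strand) and Npas4 (chr19:4989972-4990221, minus strand) are shown for their TGACG sites, Nr4a1 (chr15:101266596-101266845, plus strand) for 4 such sites, Plk2 (chr13:110394794-110395043, plus strand) for the palindrome, Dusp5 (chr19:53528895-53529144, plus strand) for its pair of adjoining CArG boxes, and Ier5 (chr1:155099637-155099886, minus strand) because it holds none of the letters searched.
Fos: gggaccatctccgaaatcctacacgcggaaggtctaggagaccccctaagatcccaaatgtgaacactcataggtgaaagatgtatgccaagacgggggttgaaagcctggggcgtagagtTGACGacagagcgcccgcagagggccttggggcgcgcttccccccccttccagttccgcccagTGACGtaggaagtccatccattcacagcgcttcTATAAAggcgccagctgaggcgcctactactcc
Npas4: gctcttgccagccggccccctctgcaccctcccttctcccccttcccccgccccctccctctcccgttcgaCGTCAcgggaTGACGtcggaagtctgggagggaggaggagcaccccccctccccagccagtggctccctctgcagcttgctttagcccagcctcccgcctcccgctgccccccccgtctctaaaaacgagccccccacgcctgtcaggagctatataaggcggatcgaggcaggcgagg
Nr4a1: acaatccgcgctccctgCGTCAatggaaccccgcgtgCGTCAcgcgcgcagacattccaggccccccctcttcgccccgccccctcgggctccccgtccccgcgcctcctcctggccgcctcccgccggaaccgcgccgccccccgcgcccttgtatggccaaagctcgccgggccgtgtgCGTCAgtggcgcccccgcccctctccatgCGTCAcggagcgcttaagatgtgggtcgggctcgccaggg
Plk2: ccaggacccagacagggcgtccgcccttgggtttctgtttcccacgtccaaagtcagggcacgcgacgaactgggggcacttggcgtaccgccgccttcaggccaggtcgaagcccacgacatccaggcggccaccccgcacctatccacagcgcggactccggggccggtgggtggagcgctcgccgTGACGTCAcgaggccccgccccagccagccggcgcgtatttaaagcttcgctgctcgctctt
Dusp5: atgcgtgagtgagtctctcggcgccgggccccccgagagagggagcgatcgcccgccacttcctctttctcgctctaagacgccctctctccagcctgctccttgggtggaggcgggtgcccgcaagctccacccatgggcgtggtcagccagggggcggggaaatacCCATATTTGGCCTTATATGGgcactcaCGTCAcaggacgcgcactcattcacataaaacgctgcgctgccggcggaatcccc
Ier5: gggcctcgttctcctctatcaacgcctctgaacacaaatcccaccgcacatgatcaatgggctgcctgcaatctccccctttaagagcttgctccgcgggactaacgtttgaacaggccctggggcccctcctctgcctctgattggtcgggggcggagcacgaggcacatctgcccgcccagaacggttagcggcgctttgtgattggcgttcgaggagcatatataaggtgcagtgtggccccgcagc

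The libraries held 7293272 to 8675252 gene counts in WT mice and 8871052 to 11314409 in Ube3a m-/p+ mice. Ube3a itself stood at 103.5, 140.7 and 151.0 CPM (normalized expression, counts scaled to the library's total of gene counts) in WT mice 1, 2 and 3 and at 96.8, 82.9 and 80.6 in Ube3a m-/p+ mice 1, 2 and 3, a fall by 0.58 on the log2 scale (edgeR adjusted p = 0.0363). The genotypes did not overlap, but both mice numbered 1 lay close together. They also lay apart from the others in base composition: the rank correlation, over all genes, between GC content and a library's deviation from the mean was 0.05 and 0.06 in WT mouse 1 and Ube3a m-/p+ mouse 1, -0.51 and -0.57 in WT mice 2 and 3, and 0.53 in both Ube3a m-/p+ mice 2 and 3. GC content therefore moved with genotype in 4 of the 6 libraries, and results are given below also from a fit with an offset for GC content and transcript length, in which the difference of Ube3a was -0.20 (adjusted p = 0.240). What else differed between the libraries along with GC content was not tested. The exonic overlap of Ube3a with Snhg14 on the opposite strand is 1803 bp, and the strand setting of the counts is not given in the sources used here. Summed neuron markers overlapped between the genotypes (6595 to 6635 CPM in WT mice, 6284 to 6685 in Ube3a m-/p+ mice). Of the 16 neuron markers, 6 were higher and 10 lower, and 9 had an unadjusted edgeR p below 0.05 (5 higher and 4 lower). That level was reached by 24.6% of all tested genes. With the offset, 4 of the 16 reached it, against 14.2% of all genes. Other sums did not overlap: 8 oligodendrocyte markers (8058 to 8171 against 6732 to 7646 CPM) and 8 astrocyte markers (4633 to 5158 against 4030 to 4358 CPM). In each of these 2 lists 3 single markers were higher and 5 lower. Nor did 9 microglia markers (434 to 470 against 411 to 425 CPM, 5 higher and 4 lower). The same held for 12 endothelial and mural markers (407 to 438 against 346 to 390 CPM, 5 higher and 7 lower). The sums of 8 striatum and thalamus markers did not overlap either, but were higher in Ube3a m-/p+ mice (83.1 to 100 against 107 to 109 CPM). Of these 8 markers, 6 were higher and 2 lower. None of the markers of these lists was at 0. Choroid plexus markers, a sign of adjoining tissue, summed to 104 to 2211 CPM in WT mice and 110 to 2293 CPM in Ube3a m-/p+ mice. All 8 meninges and fibroblast markers lay higher, but their sums overlapped (90.6 to 149 against 95.6 to 177 CPM). In the edgeR test used below, Pdgfra (log2 fold change -0.43, adjusted p = 0.0466) and Rgs5 (-0.51, adjusted p = 0.0387) were called lower. Col1a1 was called higher (0.73, adjusted p = 0.0416). With the offset Pdgfra stayed called (adjusted p = 0.0461), but Rgs5 and Col1a1 did not (both 0.0750). The part of these differences in the results below was not tested.

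Per kilobase of transcript, the 35 genes spanned from 0.641 to 129 RPKM (CPM divided by the length of the longest annotated transcript in kilobases, mean of the 6 libraries), with a median of 6.90. Nrn1, which encodes the surface protein neuritin, had the highest level at 129 RPKM. Jund followed at 91.7, Plk2 at 84.0, Arc at 45.3 and Egr1 at 35.6 RPKM. At the other end stood Egr2 at 0.685 RPKM and Atf3 at 0.641 RPKM, with 112 and 71 counts over the 6 libraries. Fos, the classic mark of an active neuron, stood at 4.27 RPKM and Npas4, which depends on calcium entry, at 4.65 RPKM. In the plot of levels by mouse, the points of the 2 genotypes overlap in 26 of the 35 genes.

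**Figure D1:**
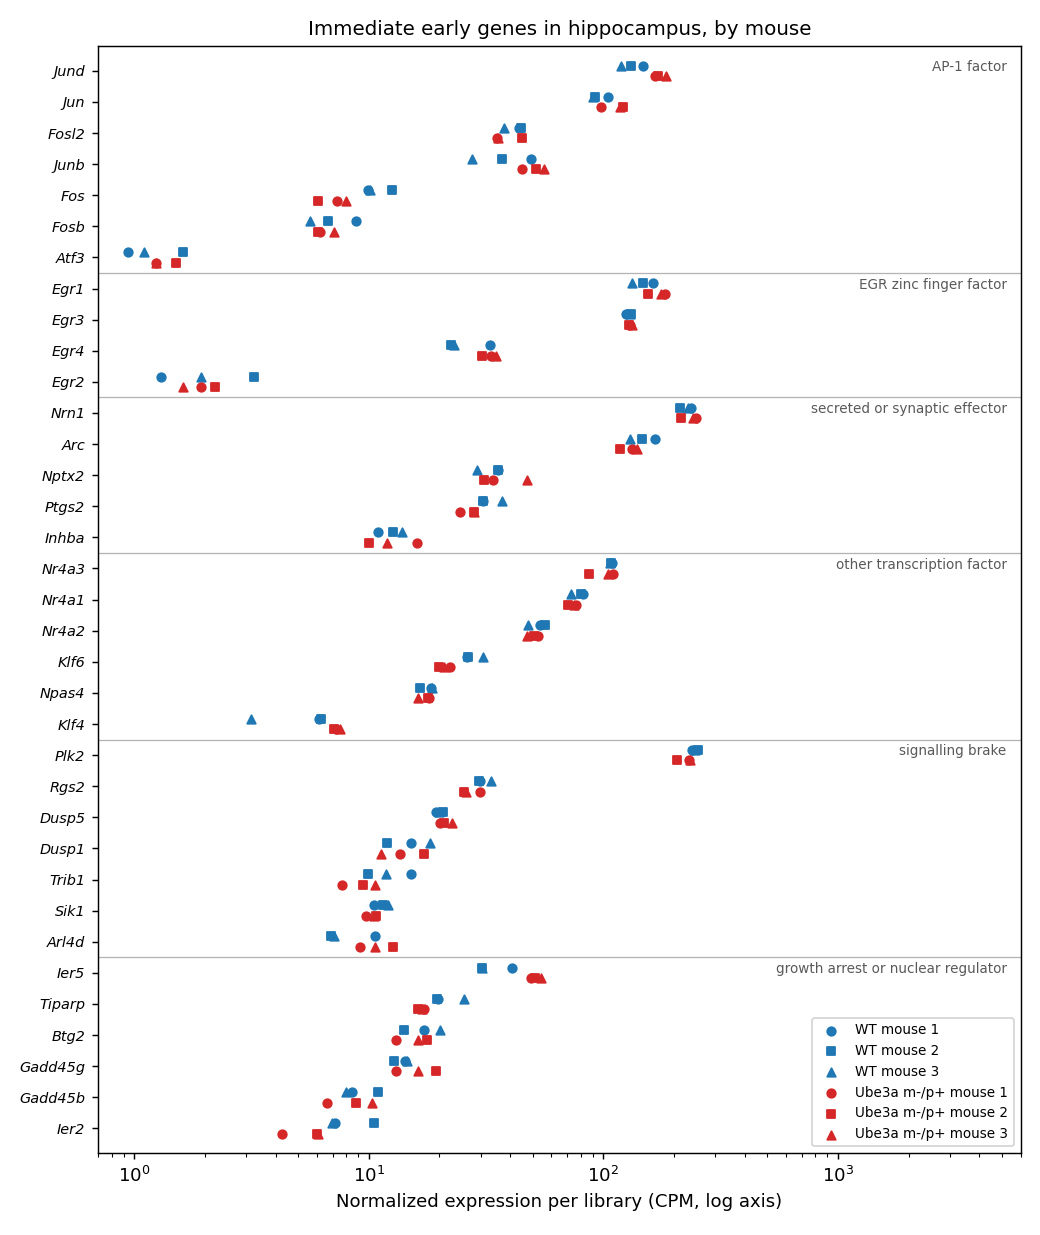
Normalized expression (CPM, log axis) of the 35 immediate early genes in each of 3 WT mice (blue) and 3 Ube3a m-/p+ mice (red), with 1 point per library and the marker shape giving the mouse number. Red and blue points lie apart in 9 genes, with red to the right for Jund, Ier5 and Klf4 and red to the left for Fos, Klf6, Ier2, Tiparp, Ptgs2 and Plk2.

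Between the genotypes, 2 of the 35 genes passed the test (edgeR, adjusted p below 0.05 and fold change above 1.2), where 2.01% of all tested genes did. Both, Ier5 and Jund, were higher in Ube3a m-/p+ mice, a direction in which 1.02% of all tested genes were called. DESeq2 called the same 2, where it called 6.69% of all tested genes, and gave no adjusted p for 10 of the 35 genes, Fos and Ier2 among them. At an unadjusted p below 0.05, 6 genes were higher (17.1% of the 35, against 12.2% of all tested genes) and 5 lower (14.3%, against 12.4%). All mice of one genotype lay above all mice of the other in 3 genes that were higher (8.57% of the 35, against 10.8% of all) and in 6 that were lower (17.1%, against 14.2%), so that the shares lay near those of all genes. In the remaining 26 genes the mice of the 2 genotypes overlapped. Of the 35 genes, 15 lay above 0 and 20 below. Their median log2 fold change was -0.06 and that of all tested genes 0.00, and the median size of the change was 0.16 against 0.18.

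The AP-1 factors are bZIP proteins that bind DNA as Fos-Jun or Jun-Jun dimers, and the 7 of them did not share a direction. Jund, the Jun protein with the most constant expression, rose from 147, 132 and 119 CPM in WT mice 1, 2 and 3 to 166, 170 and 184 CPM in Ube3a m-/p+ mice 1, 2 and 3. Each Ube3a m-/p+ mouse thus exceeded each WT mouse, and the log2 fold change was 0.40 ± 0.10 (SE, adjusted p = 0.0427), but with the GC and length offset it turned to -0.02 (adjusted p = 0.936). Jund is among the genes richest in G and C here, at 67.1% of its transcript against a median of 49.9% over tested genes. Without WT mouse 2, WT mouse 3, Ube3a m-/p+ mouse 2 or Ube3a m-/p+ mouse 3 in turn, the adjusted p of Jund lay between 0.163 and 0.251. In those fits only 0 to 2 of all genes were called. Without WT mouse 1 or Ube3a m-/p+ mouse 1, Jund stayed called (adjusted p = 0.00302 and 0.0136).

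Fos lay on the other side. It stood at 9.89, 12.6 and 10.1 CPM in the WT mice and 7.33, 6.10 and 7.98 CPM in the Ube3a m-/p+ mice. The lowest WT mouse lay above the highest Ube3a m-/p+ mouse, and the exact permutation p was 0.1, the smallest that 3 against 3 mice can give. The log2 fold change of -0.59 ± 0.19 (95% interval -0.99 to -0.19) did not pass after adjustment over all genes (adjusted p = 0.0789), nor did the value of -0.69 with the offset (adjusted p = 0.0731). It rested on 485 counts over the 6 libraries. Leaving out each mouse in turn gave log2 fold changes from -0.69 to -0.47, and adjusted p-values from 0.0372 to 0.339, with Fos called only in the fit without WT mouse 1.

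Its partner genes lay above 0. Jun stood at 104.6, 92.1 and 90.1 CPM in WT mice and 97.6, 121.7 and 117.2 CPM in Ube3a m-/p+ mice (log2 fold change 0.25 ± 0.10, adjusted p = 0.149). Junb stood at 49.1, 36.9 and 27.4 CPM in WT mice and 44.98, 51.7 and 56.0 CPM in Ube3a m-/p+ mice (0.44 ± 0.17, adjusted p = 0.146). In both genes WT mouse 1 exceeded Ube3a m-/p+ mouse 1, so the genotypes overlapped, and with the offset the log2 fold changes were 0.10 and 0.12. The annotated exons of Junb overlap those of Prdx2 on the opposite strand over 173 bp, those of Jun overlap Junos over 232 bp and those of Jund overlap Gm11175 over 877 bp, so that reads of the 2 strands cannot be told apart there without a stated strand setting. Fosb, Fosl2 and Atf3, a bZIP factor induced by stress, lay at -0.11, -0.10 and 0.14 on the log2 scale (adjusted p from 0.625 to 0.864). Fosl2 ranged from 35.2 to 45.1 CPM and Atf3 from 0.942 to 1.61 CPM over the 6 mice. Fosb varied from 5.62 to 8.83 CPM among WT mice alone, a range that held all 3 Ube3a m-/p+ mice.

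The 4 EGR genes encode zinc finger factors that bind GC-rich promoter sites. Egr1, which is required for lasting synaptic potentiation, stood at 163, 148 and 133 CPM in WT mice and 183, 154 and 177 CPM in Ube3a m-/p+ mice (log2 fold change 0.23 ± 0.10, adjusted p = 0.167). Egr4 stood at 32.9, 22.5 and 23.2 CPM in WT mice and 33.1, 30.4 and 34.98 CPM in Ube3a m-/p+ mice (0.34 ± 0.14, adjusted p = 0.152). WT mouse 1 reached into the Ube3a m-/p+ range in both. With the offset the value of Egr1 was 0.06 and that of Egr4, whose transcript has a GC content of 68.2%, was -0.06. Egr3 was nearly level across all 6 mice, at 125, 131 and 130 CPM in WT mice and 129, 128 and 132 CPM in Ube3a m-/p+ mice. Its log2 fold change was 0.03, with a 95% interval from -0.14 to 0.20. Its SD within genotype of 0.03 on the log2 scale was larger than that of only 0.782% of tested genes. Egr2, at 1.30 to 3.23 CPM, was too thinly counted to place (interval -0.94 to 0.63).

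Among the other transcription factors, 5 of 6 lay below 0 and none was called. Npas4, a factor restricted to neurons, stood at 18.5, 16.6 and 18.5 CPM in WT mice and 18.0, 17.9 and 16.2 CPM in Ube3a m-/p+ mice. These ranges nearly coincided, and the 95% interval of its log2 fold change ran from -0.30 to 0.25. The orphan nuclear receptors Nr4a1, Nr4a2 and Nr4a3 had mean levels of 78.4, 52.5 and 107.6 CPM in WT mice and 74.2, 50.1 and 100.2 CPM in Ube3a m-/p+ mice. Their log2 fold changes were -0.06, -0.05 and -0.09, with adjusted p-values from 0.611 to 0.779, and the genotypes overlapped in each.

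The 2 Krüppel-like factors lay on opposite sides of 0, neither of them called. Klf6 stood at 26.1, 26.5 and 30.7 CPM in WT mice and 22.2, 20.0 and 21.0 CPM in Ube3a m-/p+ mice, without overlap (log2 fold change -0.38 ± 0.12, adjusted p = 0.0756, and -0.19 with the offset). Klf4 stood at 6.13, 6.22 and 3.15 CPM in WT mice and 7.21, 7.07 and 7.51 CPM in Ube3a m-/p+ mice, also without overlap (0.49 ± 0.24, adjusted p = 0.216). WT mouse 3 lay far below the other 2 WT mice, and the SD within genotype of 0.38 exceeded that of 90.6% of tested genes.

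The products that act at the synapse or outside the cell gave no call in the counts as deposited. Arc, whose protein drives AMPA receptor uptake from the synapse, stood at 166, 145 and 129 CPM in WT mice and 132, 117 and 140 CPM in Ube3a m-/p+ mice. The ranges overlapped, and the log2 fold change was -0.16 ± 0.10 (adjusted p = 0.340). With the GC and length offset, Arc was called lower at -0.38 ± 0.08 (adjusted p = 0.0230). On that scale the WT mice stood at 7.37, 7.32 and 7.20 log2 CPM and the Ube3a m-/p+ mice at 7.04, 6.73 and 6.99 log2 CPM, without overlap. Ptgs2, which encodes the cyclooxygenase COX-2, stood at 30.6, 30.8 and 36.9 CPM in WT mice and 24.6, 28.0 and 28.1 CPM in Ube3a m-/p+ mice, without overlap. Its log2 fold change was -0.26 ± 0.12 (adjusted p = 0.187) as counted and 0.00 with the offset, at a GC content of 40.0%. Nrn1 and Inhba, which encodes a subunit of activin A, lay at 0.06 and 0.03 on the log2 scale, with ranges over the 6 mice of 213 to 247 CPM and 9.99 to 16.1 CPM. Nptx2, a pentraxin that gathers AMPA receptors, lay at 0.18, and its highest value of 47.3 CPM was in Ube3a m-/p+ mouse 3, whereas the other mice had 28.9 to 35.6 CPM.

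The 7 genes of small signalling regulators, most of which restrain the pathways that induce them, held no call and no unadjusted p below 0.05. Plk2, a kinase of synaptic homeostasis, had the most counts of the 35 genes and stood at 239, 253 and 246 CPM in WT mice and 233, 205 and 234 CPM in Ube3a m-/p+ mice. The genotypes did not overlap, but the log2 fold change was only -0.12 ± 0.08 (adjusted p = 0.401). The MAP kinase phosphatases Dusp1 and Dusp5 lay at -0.08 and 0.11 on the log2 scale, and both overlapped between genotypes. Dusp1 ranged from 11.3 to 18.2 CPM over the 6 mice, and Dusp5 only from 19.3 to 22.5 CPM. Sik1, a kinase that holds CREB coactivators in the cytoplasm, lay at -0.12, Rgs2, which shortens G protein signals, at -0.16, and the pseudokinase gene Trib1 at -0.39. Trib1 ranged from 7.67 CPM in Ube3a m-/p+ mouse 1 to 15.2 CPM in WT mouse 1. Arl4d, a small GTPase, lay at 0.41 ± 0.20 (adjusted p = 0.219), with WT mouse 1 at 10.6 CPM against 6.92 and 7.13 CPM in WT mice 2 and 3.

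The last 6 genes encode regulators of growth arrest and the nucleus, and Ier5 among them had the largest log2 fold change of the 35. Ier5, a nuclear protein linked to heat shock factor 1, rose from 40.8, 30.4 and 30.3 CPM in WT mice to 49.0, 51.0 and 54.3 CPM in Ube3a m-/p+ mice. The mean was 33.8 ± 6.00 CPM in WT mice and 51.4 ± 2.65 CPM in Ube3a m-/p+ mice (SD, n = 3 each), with no overlap. The log2 fold change was 0.62 ± 0.12 (adjusted p = 0.0362), an increase by 53.8%, and 0.55 ± 0.10 with the offset (adjusted p = 0.0128). Ier5 lies on the minus strand at chr1:155096361-155099636 (GRCm38) and shares no exon with another annotated gene. At 52.3% the GC content of its transcript lies above the median of tested genes, 49.9%, and below that of the 35 genes, 54.0%. Without WT mouse 2, WT mouse 3, Ube3a m-/p+ mouse 2 or Ube3a m-/p+ mouse 3 in turn its log2 fold change lay between 0.55 and 0.64 and its adjusted p between 0.136 and 0.251. In those fits only 0 to 2 of all genes were called, and Ier5 stayed called without WT mouse 1 or Ube3a m-/p+ mouse 1. Its promoter, printed above, was the one of the 6 without CRE or CArG letters.

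Ier2, from the same family as Ier5 by name, lay on the other side. It stood at 7.19, 10.5 and 6.99 CPM in WT mice and 4.28, 6.01 and 6.08 CPM in Ube3a m-/p+ mice, without overlap. Its log2 fold change was -0.57 ± 0.23 (adjusted p = 0.139) as counted, and with the offset Ier2 was called at -0.90 ± 0.22 (adjusted p = 0.0453). Both values rested on 373 counts over the 6 libraries. Tiparp, a mono-ADP-ribosyltransferase, stood at 19.7, 19.6 and 25.5 CPM in WT mice and 17.1, 16.2 and 16.9 CPM in Ube3a m-/p+ mice (-0.34 ± 0.14, adjusted p = 0.139, and -0.10 with the offset). The genotypes did not overlap, and WT mouse 3 stood apart as the highest. Btg2, Gadd45b and Gadd45g, which slow the cell cycle or act in DNA repair and demethylation, lay at -0.10, -0.07 and 0.25 on the log2 scale with overlap. Their ranges over the 6 mice were 13.1 to 20.2 CPM, 6.65 to 10.95 CPM and 12.8 to 19.4 CPM.

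**Figure D2:**
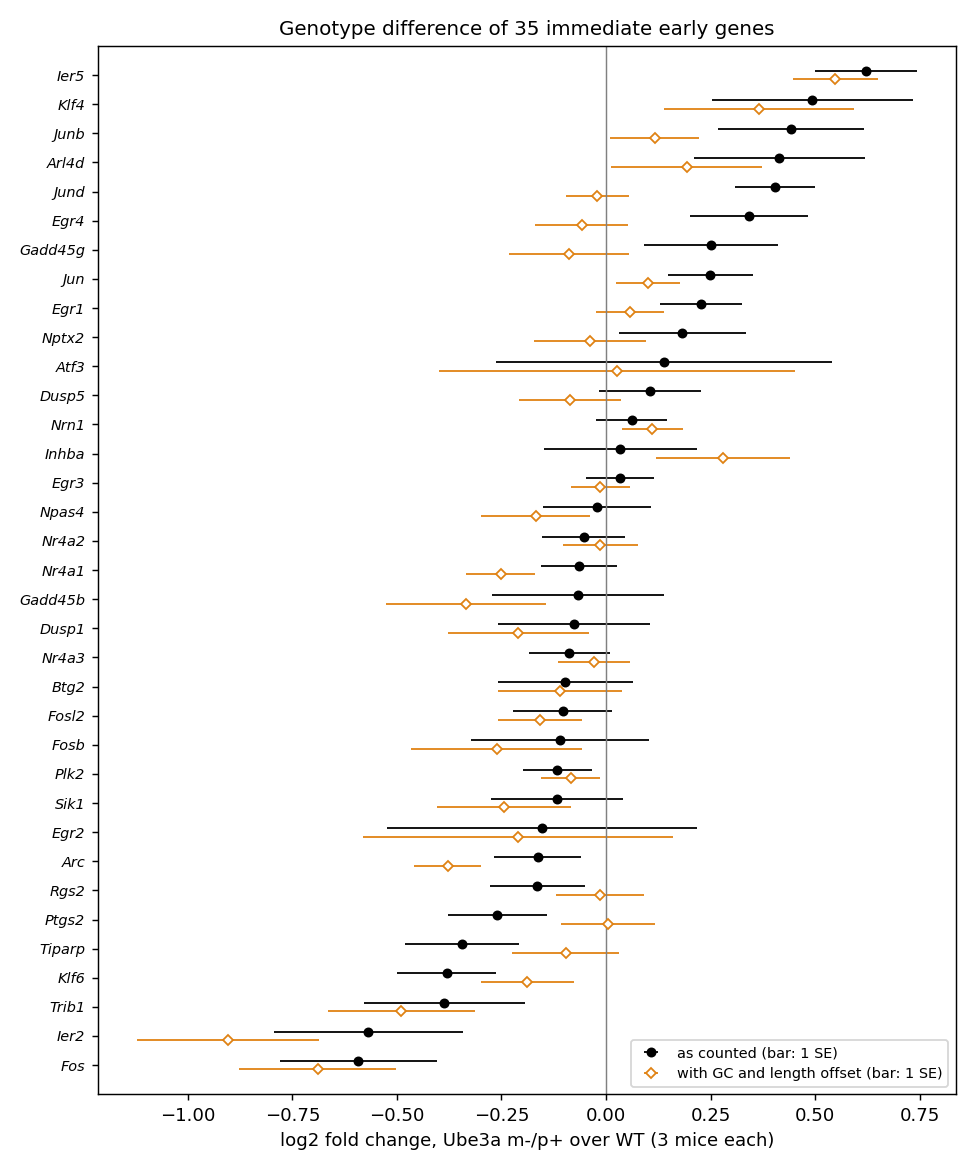
Log2 fold change of each immediate early gene (Ube3a m-/p+ over WT, 3 mice each, bars 1 SE) from the counts as deposited (filled) and with the offset for GC content and transcript length (open). Ier5 stands highest and Fos lowest as counted, and with the offset Jund moves from 0.40 to -0.02 and Arc from -0.16 to -0.38.

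With the GC and length offset, 3 of the 35 genes were called, namely Arc, Ier2 and Ier5, where 0.648% of all genes were. Of these, Ier5 was also called without it. An unadjusted p below 0.05 was reached by 6 genes (17.1% of the 35, against 14.2% of all), and 5 of them, Fos, Arc, Nr4a1, Ier2 and Trib1, were lower. The genotypes then did not overlap in 7 lower genes, Fos, Arc, Nr4a1, Ier2, Klf6, Sik1 and Trib1, and in 2 higher ones, Ier5 and Klf4, where 9.83% and 7.60% of all genes were lower or higher without overlap. In number, 25 of the 35 genes (71.4%) lay below 0, against 52.5% of all genes, and the median was -0.08 against -0.01.

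GC content moved with the fold changes as counted. The 35 genes had a median GC content of 54.0%, against 49.9% for tested genes, and 25 of them lay above that value. Over the 35 genes the rank correlation between GC content and log2 fold change was 0.43, and with the offset it was -0.20. Over all genes with a GC value it was 0.62 and 0.02. These are descriptions across genes of the same 6 libraries. Of the 4 genes with a GC content over 60%, 3 (Junb, Jund and Egr4) lay above 0 and Ier2 below, and of the 5 genes under 45%, 4 (Klf6, Tiparp, Ptgs2 and Rgs2) lay below 0 and Inhba above.

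**Figure D3:**
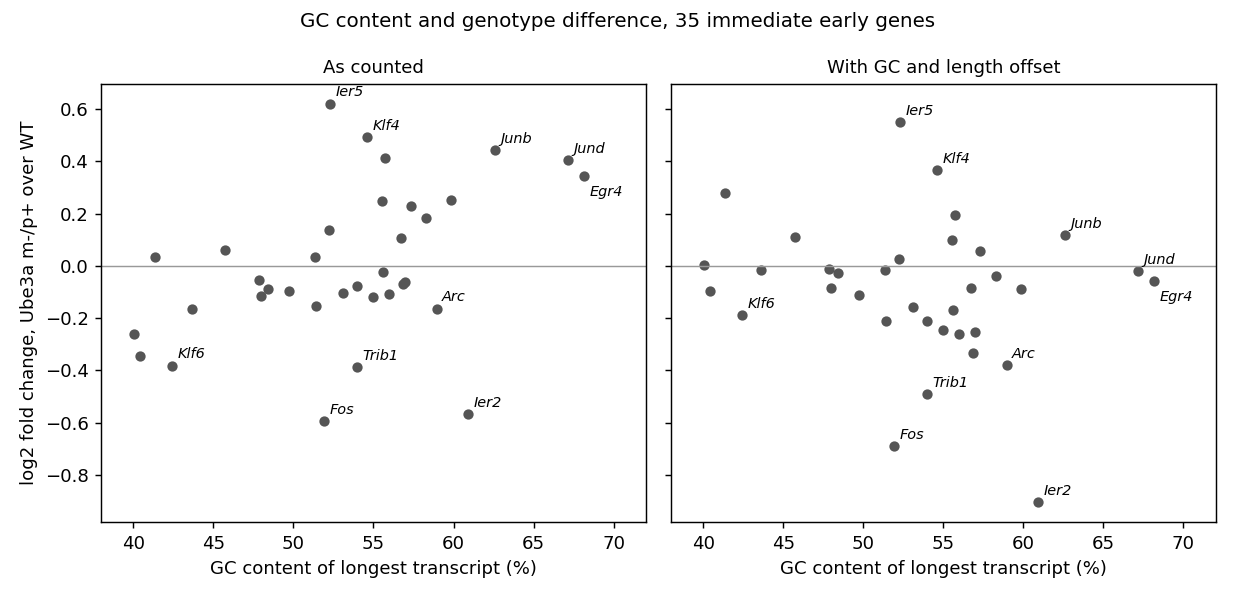
GC content of the longest transcript (%) against log2 fold change (Ube3a m-/p+ over WT) for the 35 genes, as counted (left) and with the offset for GC content and transcript length (right). On the left Jund, Junb and Egr4, over 60% GC, lie above 0. On the right Jund and Egr4 lie slightly below 0, while Ier5, Fos and Ier2 keep their side.

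Mouse by mouse, 27 of the 35 genes lay above their genotype's mean in Ube3a m-/p+ mouse 3 (median deviation 0.06 on the log2 scale) and 12 in WT mouse 3 (median -0.09), with 15 to 21 in the other 4 mice. The summed level of the 35 genes was 1909, 1804 and 1752 CPM in WT mice 1, 2 and 3 and 1872, 1792 and 1939 CPM in Ube3a m-/p+ mice 1, 2 and 3, so the sums overlapped. Within WT, 14 genes were highest in mouse 1 (among them Fosb, Jun, Junb, Egr1, Egr4, Arc and Nr4a1), 11 in mouse 2 (among them Fos, Egr2, Egr3, Ier2 and Gadd45b) and 10 in mouse 3 (among them Npas4, Dusp1 and Ptgs2). Within Ube3a m-/p+, 10, 9 and 16 genes were highest in mice 1, 2 and 3, and Fos, Fosb, Junb, Egr4 and Arc were all highest in mouse 3. The median SD within genotype was 0.17 on the log2 scale for the 35 genes and 0.16 for all tested genes, and 19 of the 35 exceeded the latter. Egr2 (0.44), Klf4 (0.38) and Junb (0.32) had the widest spread. In Junb this spread exceeded that of 85.7% of tested genes at a level of 24.5 RPKM.

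**Figure D4:**
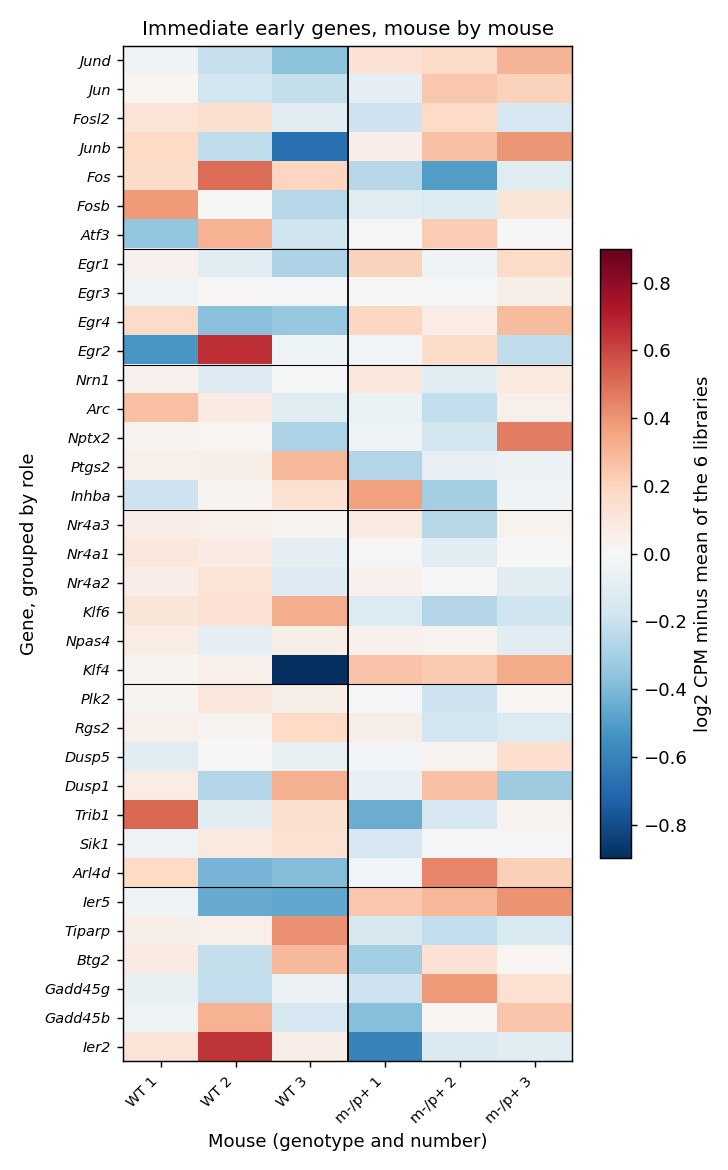
Deviation of log2 CPM from the mean of the 6 libraries for each gene (lines, grouped by role) in each mouse (columns, WT left and Ube3a m-/p+ right of the black line). Jund and Ier5 are red in all 3 Ube3a m-/p+ mice and Fos and Klf6 blue in all 3, while in genes such as Dusp1 and Fosl2 mice of both genotypes lie on both sides of 0.

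**Figure D5:**
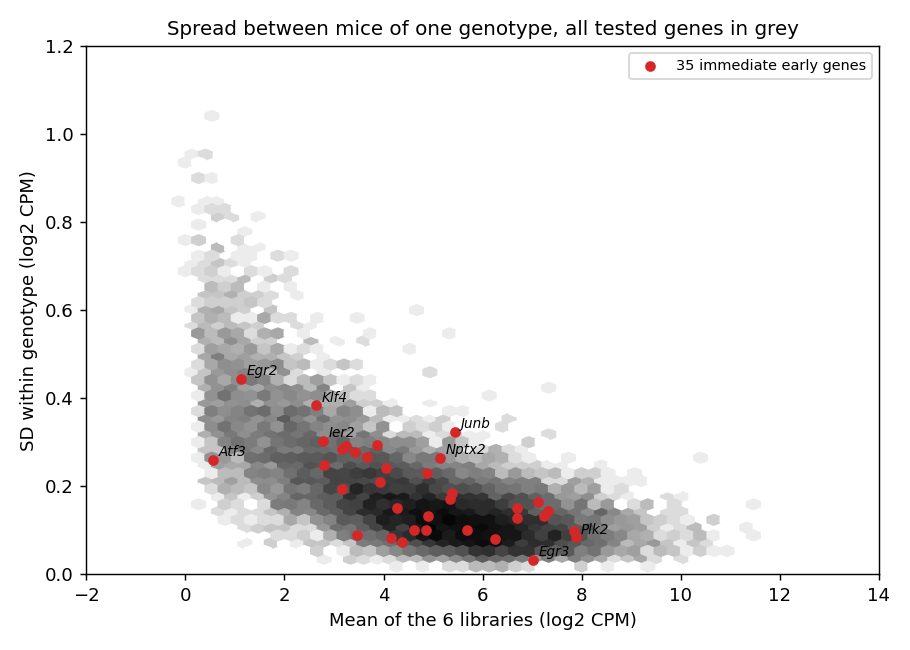
SD within genotype against mean level (both log2 CPM) for the 35 genes (red) and all tested genes (grey, darker where more genes fall, with the axis ending at an SD of 1.2). The red points lie within the grey cloud, with Egr3 near its lower edge and Junb near its upper edge.

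Both mice numbered 1 lay near each other in Ube3a and in GC content, and in Jun, Junb and Arl4d they were the mice that overlapped. An analysis without these 2 mice, chosen after seeing the data, called 9 of the 35 genes, where 28.3% of all tested genes were called. These were Jun, Junb, Jund, Egr4, Arl4d and Ier5 on the higher side and Fos, Klf6 and Tiparp on the lower side. In the 4 mice left, GC content and genotype cannot be told apart.

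The genes that carry activity to the nucleus were taken as a further list of 41, written with earlier results of these data known. None of them was called, 7 were higher and 9 lower at an unadjusted p below 0.05 (39.0% of the list, against 24.6% of all tested genes), and with the offset 5 of the 41 reached that level (against 14.2% of all genes). Creb1, the factor that binds the CRE, stood at 54.3, 56.4 and 62.0 CPM in WT mice and 49.1, 40.7 and 44.9 CPM in Ube3a m-/p+ mice (log2 fold change -0.34, adjusted p = 0.0697, and -0.03 with the offset). Srf, which binds the CArG box, lay at 0.35 (adjusted p = 0.0844, and 0.01 with the offset). Creb1, Srf and Bdnf are named here after their values were seen. DESeq2 called 2 of the 41, against 6.69% of all tested genes. Of 50 other activity-induced genes, 47 were tested and 1 was called, where 2.01% of all tested genes were. This was the splicing regulator gene Mbnl2, lower at -0.39 (adjusted p = 0.0410) and at -0.36 with the offset (adjusted p = 0.0197). Without WT mouse 2, WT mouse 3, Ube3a m-/p+ mouse 2 or Ube3a m-/p+ mouse 3 in turn Mbnl2 was not called (adjusted p from 0.143 to 0.272). In those fits only 0 to 2 of all genes were called, and Mbnl2 stayed called without WT mouse 1 or Ube3a m-/p+ mouse 1 (adjusted p = 0.00299 and 0.00941). With Mbnl2, 11 of the 47 had an unadjusted p below 0.05 (23.4%, near the 24.6% of all tested genes). Among the other 10 was Bdnf, the activity-induced neurotrophin, at -0.21 (adjusted p = 0.194, and 0.03 with the offset).

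The study asked whether genes of retinoic acid signalling differ between these mice, and 10 of the 35 genes are also on its literature list of retinoic acid targets, namely Fos, Jun, Junb, Egr1, Nr4a1, Nr4a2, Nr4a3, Inhba, Tiparp and Ptgs2. None of these 10 was called by edgeR, and none by DESeq2, which gave Fos no adjusted p. The study used a looser threshold, P below 0.05 with a fold change above 1.2, and reported most of its differing targets as lower. At an unadjusted edgeR p below 0.05 with that fold change, Fos (1.51-fold) and Tiparp (1.27-fold) were lower and Junb (1.36-fold) higher. Of all 14445 tested genes, 2832 reached that unadjusted edgeR p with that fold change. The study reported far fewer genes at its threshold, so the genes passing here need not be those it found. An unadjusted edgeR p below 0.05 was reached by 6 of the 10 (against 24.6% of all tested genes). Of these, Jun, Junb and Egr1 were higher and Fos, Tiparp and Ptgs2 lower. With the offset, 2 reached an unadjusted p below 0.05, Fos and Nr4a1 (against 14.2% of all genes). The 10 log2 fold changes ran from -0.59 to 0.44 with a median of -0.06.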

How the data were processed

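Hippocampal RNA of 3 WT and 3 Ube3a m-/p+ mice was sequenced with 1 library per mouse. The authors deposited raw counts, 1 htseq table of gene symbols per library, not normalized. The submitters' processing notes name STAR 2.7.4a, HTSeq and mm10, and the annotation and strand setting are not given in the sources used here. Counts on genes ranged from 7293272 to 11314409 per library. Groups came from the sample titles.

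After filterByExpr and TMM scaling, the quasi-likelihood F test of edgeR (4.0.16, R 4.3.3) was run with genotype as the only term, two-sided, adjusted by Benjamini-Hochberg over 14445 genes. Called genes had an adjusted p below 0.05 with a fold change over 1.2. p-values rest on the spread between these mice, drawn by edgeR toward the trend over all genes. The 95% intervals use the resulting SE and the t quantile of its degrees of freedom, 15.97 for Egr3. CPM were computed on total gene counts, and RPKM on the longest GENCODE M21 transcript. The offset fitted, per library, natural splines (5 degrees of freedom each) of GC content and length of the longest transcript for 14201 genes. Alternatives were DESeq2 1.42.0, other scaling and filters, a replicate block, the offset, and leaving out mice. The steps were also run on simulated data, of which no result is given here. Promoter sequences are RefSeq windows (GRCm38.p6). No window was at hand for Egr1, Egr3, Arc, Ier2, Nptx2, Sik1, Nrn1 and Trib1. The members and lists were chosen with earlier results of these data known, and all 35 members are named by rule, with the called genes of other lists.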

Additional observations from a re-analysis of the deposited data

How the results depend on the processing

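The count of 2 called immediate early genes was the same with DESeq2, RLE, upper-quartile or library size scaling, without a filter and with at least 10 counts in every library. DESeq2 gave 10 of the 35 genes no adjusted p. An unadjusted p with the fold threshold gave 8 of the 35 genes and 2832 of all genes. Of all genes, 967 were called by DESeq2, 1176 without a filter and 92 with the GC content and length offset, against 290. With the replicate block 0 of the 35 genes, 0 of all genes and 0 of the other activity-induced genes were called, and with the replicate block and the offset 1 (Ier5), 13 and 0. The numbers were not taken as pairs. Deviations of same-numbered mice from their genotype's mean correlated at -0.285, -0.177 and -0.311. These values cannot decide whether the numbers mark pairs, since GC content deviated in opposite ways in the 2 genotypes, while both mice numbered 1 were alike in it. Leaving out 1 mouse in turn called 0 (without WT mouse 2, WT mouse 3, Ube3a m-/p+ mouse 2 or 3) to 9 (without WT mouse 1) of the 35 genes, 0 to 2582 of all genes, 0 to 16 upstream signalling genes and 0 to 4 other activity-induced genes. Genes at an unadjusted p below 0.05 numbered 6 with the offset, 6 with the replicate block and offset, and 6 to 13 when a mouse was left out. Without both mice numbered 1, 9 of the 35 genes, 4138 of all genes, 19 upstream genes and 14 other activity-induced genes were called. Of the upstream genes, DESeq2 called 2 and the unfiltered fit 4, and DESeq2 called 2 of the other activity-induced genes. Leaving out a mouse gave a median of the 35 log2 fold changes from -0.0377 to -0.0012. Ube3a was -0.57 with the replicate block, -0.20 with the offset and -0.19 with both, none called, and -0.73 to -0.48 when a mouse was left out, not called without WT mouse 2, WT mouse 3, Ube3a m-/p+ mouse 2 or 3 (adjusted p 0.142 to 0.251).

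Of the 35 genes, 19 kept 1 direction in all 17 fits (7 higher, 12 lower). With the offset, the log2 fold change turned to -0.0203 in Jund, -0.0138 in Egr3, -0.0579 in Egr4, -0.0857 in Dusp5, -0.0382 in Nptx2, -0.0884 in Gadd45g and 0.00494 in Ptgs2. With the replicate block and the offset, it was -0.0208 in Jund, -0.0141 in Egr3, -0.0546 in Egr4, -0.0874 in Dusp5, -0.0564 in Nptx2 and -0.101 in Gadd45g. When a mouse was left out, the sign turned in some of the fits of 10 genes, with values of -0.246 to 0.0891 in Fosb, -0.42 to 0.285 in Egr2, -0.0723 to 0.0225 in Npas4, -0.144 to 0.018 in Nr4a3, -0.245 to 0.0709 in Dusp1, -0.223 to 0.0252 in Btg2, -0.0219 to 0.405 in Atf3, -0.0338 to 0.314 in Nptx2, -0.155 to 0.194 in Inhba and -0.22 to 0.0887 in Gadd45b. Without both mice numbered 1 it turned to 0.114 in Fosb, 0.0183 in Btg2, -0.255 in Inhba and 0.0216 in Gadd45b. Of the genes that turned, Jund was called as reported, Egr4 was called only without WT mouse 1 and without both mice numbered 1, and no turned value was called. The causes were not tested. Depth limits Egr2 and Atf3 most, with 112 and 71 counts over the 6 libraries.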
